A study of Manihot esculenta with 8 samples.

Results

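A group of 94 cassava gene IDs was near-silent in untreated shoots and present in shoots after a short cold treatment, out of 31901 IDs in the deposited count table. Levels were taken as CPM, the counts of an ID scaled to the total counts of its library (counts per 1000000). The members were chosen by their CPM values: all IDs with a WT mean below 1 CPM, a cold mean of at least 1 CPM and at least 4 times the WT mean, and a lowest cold library above the highest WT library. All of these values come from the same 8 libraries and from the contrast of cold with WT, so the rise itself is the criterion and is given as a description, with no test. The rule took 0.295% of the IDs. The same rule turned round, for IDs near-silent in the cold and present in WT, took 34 IDs (0.107%).

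Cassava (Manihot esculenta) is a tropical crop grown for its roots. The cold group (4 libraries) held shoots that were moved for 3 h to a lit cold room at 4 °C after 2 weeks of control growth. The group labelled WT (4 libraries) held untreated shoots. Both groups were seedlings of cultivar TM12, wild type in genotype, raised with 16 h of light at 20 °C, 8 h of dark at 18 °C and 60% humidity, so "WT" marks the lack of treatment and not a genotype difference. The labels give neither the hour of harvest of the WT shoots nor whether each library had its own plants, so the spread between libraries, and any p-value built on it, may be partly technical.

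Plants that sense cold change their transcripts within hours. In Arabidopsis, transcription factors of the CBF family, scarce at warm temperature, rise early in the cold and activate a later set of cold-regulated genes that encode protective proteins. Many genes are also near-silent in a whole shoot because a stress, a hormone or a small group of cells is needed for their transcription. No name, description or length could be paired with any ID here, so none of the members can be assigned to such a family. The members are therefore described by level, evenness and place in the ID series. CPM is not corrected for transcript length, so levels of different IDs are not ranked against each other as amounts of transcript. In whole shoots, more cells with a transcript and more transcript per cell cannot be told apart.

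Libraries held 62798223 to 100031792 counts in the cold and 82385404 to 96516912 counts in WT. A count of 3 corresponded to 0.03 to 0.0478 CPM, depending on the library. Cold replicates 1 and 3 and WT replicate 1 had 36.4%, 38.1% and 37.6% of all counts in the 1000 IDs most abundant there, against 33.4% to 34.6% in the other 5 libraries. The choice of members, their overall levels, their grouping and the edgeR calls are also given without these 3 libraries. Measures of evenness over the 4 cold libraries are not, since a pair of cold libraries would be left.

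The steps of the rule narrowed the table unevenly. A WT mean below 1 CPM was found for 8899 IDs, of which 1640 had no count in any of the 8 libraries. Of the 8899 near-silent IDs, 599 had a cold mean of at least 1 CPM, 168 of these were at least 4 times the WT mean, and 94 of those had groups that did not overlap. Every cold library lay above every WT library for 6.22% of all IDs and for 5.12% of the near-silent IDs, shares that also use the contrast of the rule. Just inside the limit on the WT mean was an ID with 0.981 CPM in WT, and just outside it one with 1.03 CPM. The nearest cold means were 1.06 CPM inside and 0.951 CPM outside. For the fold, the nearest ratios were 4.01 inside and 3.998 outside. The smallest gap between the lowest cold and the highest WT library among the members was 0.00441 CPM.

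**Figure D1:**
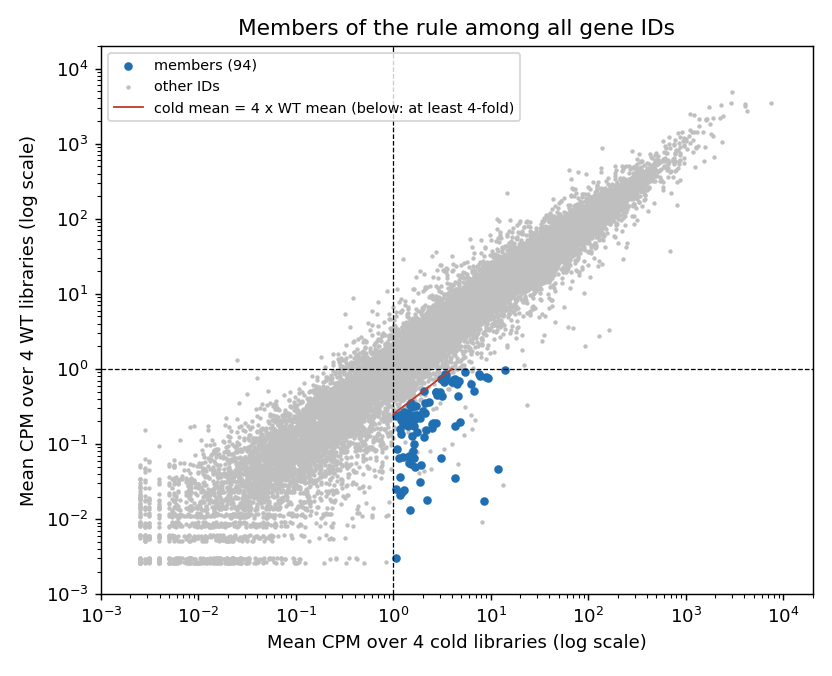
Mean CPM over the 4 cold libraries (horizontal, log scale) against mean CPM over the 4 WT libraries (vertical, log scale) for every gene ID above 0 in both groups. Dashed lines mark 1 CPM and the red line a 4-fold difference; the 94 members (blue) lie among the 168 IDs that met all limits on the means, and the other 74, drawn in grey unless at 0 in WT, had overlapping groups.

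Levels reached in the cold were modest. The mean over the 4 cold libraries lay between 1.06 and 14.1 CPM, with a median of 1.97 CPM, while the WT mean lay between 0.00303 and 0.981 CPM, with a median of 0.234 CPM. A cold mean of 1 to 2 CPM was found for 47 members, 2 to 5 CPM for 37, 5 to 10 CPM for 8 and above 10 CPM for 2. In summed counts, members had 343 to 4754 counts over the cold libraries (median 656.5) and 1 to 348 counts over the WT libraries (median 82.5).

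"Near-silent" did not mean absent. No member had 0 counts in all 4 WT libraries, 49 members had at least 10 counts in every WT library, and 11 exceeded 1 CPM in a WT library. At the other end, 9 members had at most 12 counts in the WT libraries together. In the cold, 47 members were at or above 1 CPM in every library and 20 were below 0.5 CPM in at least 1 library. Most members were thus raised above a low level that was already measurable in WT, and few were switched on from no counts or nearly none.

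The ratio of the cold mean to the WT mean could be given for 93 members, leaving out 1 with a single WT count. It ranged from 4.01 to 488 with a median of 7.75. It was below 8 for 47 members, at least 16 for 25, at least 32 for 13 and at least 64 for 5. These 5 lay on chromosomes 6, 7, 9, 14 and 18, rested on 5 to 16 WT counts, and reached cold means of 1.49 to 11.8 CPM. Ratios on so few WT counts are imprecise, and the ratio of 488 rests on 6.

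The members were also divided by their WT level. The 23 members below 0.1 CPM in WT (1 to 30 WT counts) had cold means of 1.06 to 11.8 CPM and a median of 1.49 CPM. The 47 members from 0.1 to below 0.5 CPM (34 to 178 WT counts) had cold means of 1.06 to 4.86 CPM and a median of 1.65 CPM. The 24 members from 0.5 CPM upwards (183 to 348 WT counts) had cold means of 2.06 to 14.1 CPM and a median of 4.26 CPM. The rule itself asks for a higher cold level of the last class, since the cold mean has to be 4 times that of WT.

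Of the pair of IDs named here, MANES_15G002000 had the highest cold mean. It had 13.5, 9.07, 12.6 and 21.2 CPM in cold replicates 1 to 4, against 0.655, 0.83, 1.04 and 1.40 CPM in WT replicates 1 to 4. Its lowest cold library lay well above its highest WT library. The means were 14.1 ± 5.1 CPM in the cold and 0.981 ± 0.32 CPM in WT (SD, n = 4 each), a ratio of 14.4. Its WT mean placed it just inside the limit of the rule.

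MANES_02G125200 was the most even member among the 24 members with the highest cold means. It had 4.29, 3.65, 4.43 and 3.83 CPM in cold replicates 1 to 4, against 0.267, 0.916, 0.425 and 1.03 CPM in WT replicates 1 to 4. The cold libraries lay close together, and the WT libraries fell into a lower pair and a pair near 1 CPM. The means were 4.05 ± 0.37 CPM in the cold and 0.661 ± 0.37 CPM in WT (SD, n = 4 each), a ratio of 6.13.

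Most members were uneven across the cold libraries. The coefficient of variation (CV, the SD divided by the mean) over the 4 cold libraries had a median of 0.558 and ran from 0.091 to 1.88. Counting error alone would give a median CV of about 0.0781 at these counts, and 92 of the 94 members had a CV more than 2 times their counting error. The highest cold library exceeded the lowest by a median factor of 3.46. This factor was below 2 for 10 members (10.6%) and at least 5 for 24 (25.5%). Among 9172 non-members with cold means in the same range, it was below 2 for 61.1% and at least 5 for 8.07%, and the median CV was 0.252. Those non-members had a median cold mean of 5.18 CPM, above that of the members. Their median WT mean was 5.64 CPM, against 0.234 CPM for the members, and they were not chosen for a rise. The 69 IDs with a WT mean of at least 1 CPM that were raised at least 4-fold without overlap had a median CV of 0.358, at a median cold mean of 31.2 CPM. These differences between sets were not tested.

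The unevenness followed particular libraries. Summed over the 94 members, the level was 385, 167, 320 and 222 CPM in cold replicates 1 to 4, against 27.3, 27.6, 33.2 and 34.2 CPM in WT replicates 1 to 4. Cold replicates 1 and 3 were the high ones, and the WT sums lay close together. The group values were 273 ± 97.6 CPM in the cold and 30.6 ± 3.6 CPM in WT (SD, n = 4 each). Single members were uneven in WT too, with a median CV over the 4 WT libraries of 0.488. That CV was 0.232 among the 9172 non-members with cold means in the same range. The highest cold library was replicate 1 for 39 members, replicate 3 for 38, replicate 4 for 12 and replicate 2 for 5. Replicate 2 was the lowest for 60 members. At least 1 CPM was reached by 88, 57, 84 and 64 members in cold replicates 1 to 4.

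**Figure D2:**
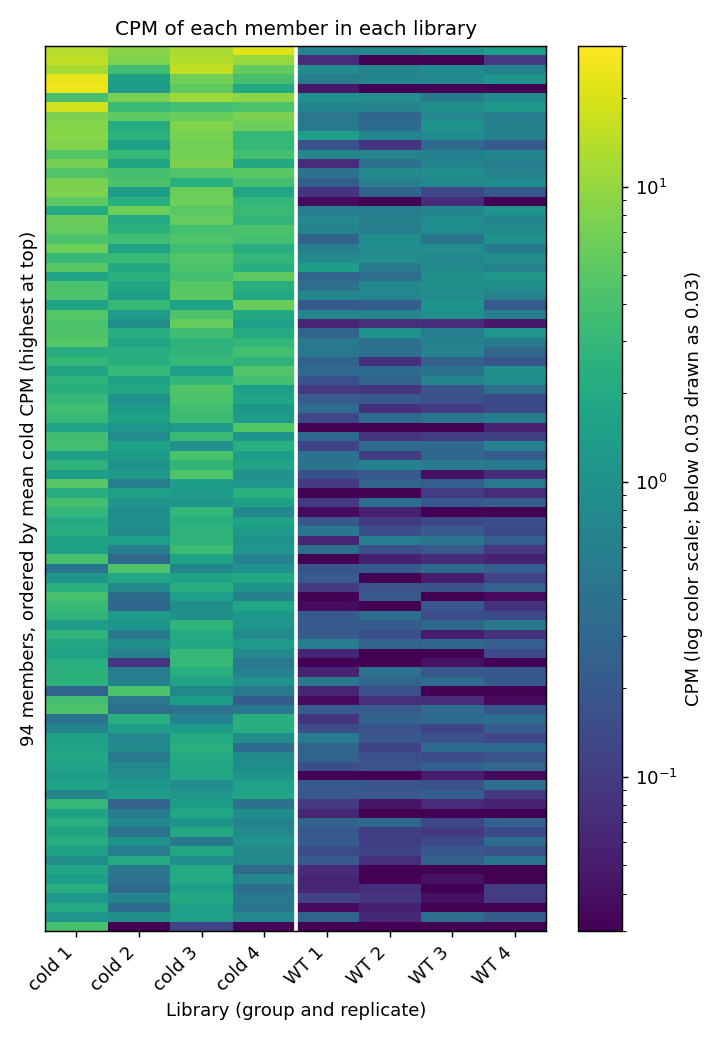
CPM (log color scale, values below 0.03 drawn as 0.03) of each of the 94 members (rows, highest cold mean at the top) in the 4 cold libraries (left) and the 4 WT libraries (right). Cold replicates 1 and 3 are brighter than cold replicates 2 and 4 for most rows, and rows differ in how dark they are in WT.

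Cold replicates 1 and 3 were the highest pair for 63 of the 94 members (67.0%). The same pair was highest for 37.7% of the 69 raised IDs that were already expressed in WT and for 11.5% of the 9172 non-members with cold means in the same range, of which the most frequent pair was replicates 2 and 4 (29.0%). For these 63 members the median levels were 2.89, 0.943, 2.95 and 1.14 CPM in cold replicates 1 to 4. A further 17 members had cold replicate 1 together with 2 or 4 as the highest pair, 7 had replicate 3 together with 2 or 4, and 7 had replicates 2 and 4. The last 7 had median levels of 0.70, 2.33, 1.31 and 2.26 CPM in cold replicates 1 to 4. The pair 1 and 3 was highest for 19 of the 23 members below 0.1 CPM in WT, for 30 of the 47 in the middle class and for 14 of the 24 from 0.5 CPM upwards. Cold replicates 1 and 3 are also the cold libraries with more of their counts in abundant IDs. The part of that difference in the members' levels was not tested. The pairs were read from values that the rule had used, and its condition of no overlap decided which IDs remained. Of the 74 IDs left out only for overlap, cold replicate 2 was the highest for 51 and cold replicate 1 the lowest for 52. The 9172 non-members were not held to that condition.

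**Figure D3:**
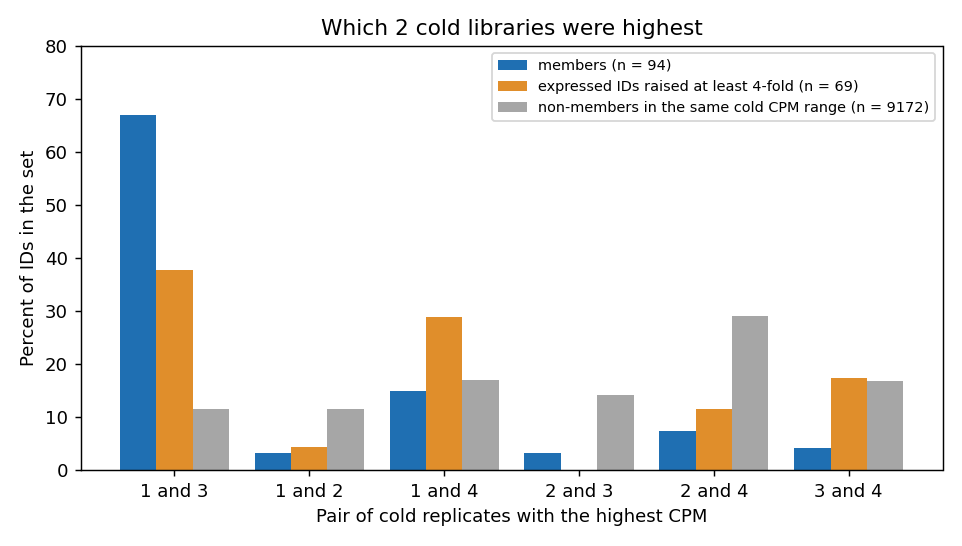
Percent of IDs (vertical) for which each pair of cold replicates (horizontal) held the highest CPM values, for the 94 members, for 69 expressed IDs raised at least 4-fold and for 9172 non-members with cold means in the same range. Replicates 1 and 3 form the highest pair for 67.0% of the members, 37.7% of the expressed raised IDs and 11.5% of the non-members.

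Even members were few and spread over 7 chromosomes. The 10 members whose highest cold library was below 2 times the lowest had cold means of 1.29 to 11.8 CPM and WT means of 0.0472 to 0.839 CPM. Among them, an ID on chromosome 14 at locus 029600 had 15.4, 7.87, 13.4 and 10.4 CPM in cold replicates 1 to 4, against 0.0728, 0, 0.0207 and 0.0951 CPM in WT replicates 1 to 4. It combined a steady level in the cold with 16 counts over the 4 WT libraries.

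At the other extreme, the cold mean of some members rested on 1 library. The highest cold library was at least 10 times the lowest for 12 members, and it was replicate 1 for 9 of them. The least even member, on chromosome 13, had 404, 2, 8 and 3 counts in cold replicates 1 to 4, against 1, 0, 0 and 0 counts in WT replicates 1 to 4. It met the rule through cold replicate 1, and outside that library it was at or near a few counts. A member on chromosome 9 had 25.3, 1.33, 5.48 and 1.95 CPM in cold replicates 1 to 4, against 0.0486, 0.0109, 0.0104 and 0 CPM in WT replicates 1 to 4. All 4 cold libraries were far above WT there, and replicate 1 stood highest. These members were chosen after their values were seen.

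Each library was also read for IDs in whose choice it took no part. The rule was applied to 3 cold and 4 WT libraries, and the chosen IDs were then read in the cold library left out. Without cold replicate 1 the rule chose 101 IDs, of which 76 (75.2%) lay above all WT libraries in cold replicate 1. Without cold replicate 2 it chose 125, of which 106 (84.8%) lay above all WT libraries in cold replicate 2. The numbers were 76 of 78 (97.4%) for cold replicate 3 and 107 of 109 (98.2%) for cold replicate 4. Among all near-silent IDs, 21.5%, 25.2%, 25.3% and 20.1% lay above all WT libraries in cold replicates 1 to 4. That background includes IDs without counts, which cannot lie above, and was not matched to the chosen IDs in level. The WT libraries of each comparison had been used in the choice, so that side was selected to be low. The size of the rise held less often than its direction: the left-out library was at least 4 times the WT mean for 63 of 101, 60 of 125, 65 of 78 and 73 of 109 IDs.

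The same reading was made for WT. Of the IDs chosen without WT replicate 1, 94 of 101 (93.1%) lay below all cold libraries in WT replicate 1, against a background of 20.7% of the IDs with a mean below 1 CPM in the other WT libraries. The values were 93 of 94 (98.9%) against 16.6% for WT replicate 2, 93 of 100 (93%) against 13.9% for WT replicate 3, and 94 of 112 (83.9%) against 12.2% for WT replicate 4. The rule had been proposed with all 8 libraries in view, so only the choice of IDs, not the form of the rule, was independent of the library left out. The cold libraries compared with it had been used in the choice, so that side was selected to be high.

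Which IDs met the rule depended on the libraries used. Without cold replicates 1 and 3 and WT replicate 1 the rule chose 92 IDs, of which 47 were among the 94 members. Of the 47 members lost, 31 had a cold mean below 1 CPM in cold replicates 2 and 4, and 15 of the others were less than 4 times the WT mean. The last had a WT mean of at least 1 CPM. Among the 92 IDs, 81 lay above WT replicates 2 to 4 in cold replicate 3 and 56 in cold replicate 1, where 28.3% and 24.5% of near-silent IDs did so. For the 94 members read without the 3 libraries, the summed level averaged 194 CPM in cold replicates 2 and 4 and 31.7 CPM in WT replicates 2 to 4, against 273 CPM in the cold and 30.6 CPM in WT with all libraries. The median cold mean was then 1.42 CPM, and 63 members reached a cold mean of 1 CPM. The median ratio of cold to WT was 5.57 over the 90 members with more than 3 WT counts. Leaving out cold replicate 1 alone kept 74 of the 94 members, and leaving out cold replicate 3 alone kept 75.

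The place of the members in the ID series was not used by the rule. IDs carry a chromosome number and a locus number, and loci were ordered by that number, not by coordinates. Members lay on all 18 chromosomes. Chromosome 14 held 16 of the 94 (17.0%), with 5.48% of all IDs, and 0.916% of its IDs were members against 0.295% overall. By count chromosome 1 came next with 11 members (0.399% of its IDs), and by share chromosome 13 with 7 members (0.449%), while chromosomes 7, 8 and 17 had 1 each. Among non-members, edgeR's test (below) called 4.42% of the tested IDs of chromosome 14 higher in the cold and 6.15% lower, against 3.73% higher and 5.11% lower over all tested non-members. Of the 92 IDs chosen without the 3 libraries, 11 (12%) lay on chromosome 14.

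Close grouping was limited to few members. Another member was the next listed ID for 6 of the 94 members (6.38%), while 0.572% of the other IDs had a member next to them. Within 5 IDs there was another member for 10 members (10.6%), against 2.76% of the other IDs, and within 10 IDs for 16 (17.0%), against 5.38%. The 3 adjacent pairs were all on chromosome 14, which also held 8 of the 10 members with another within 5 IDs. The remaining 2 lay on chromosome 16. All 10 of these members had their highest cold level in replicate 1, which was the highest for 39 of the 94. The set of 92 IDs chosen without the 3 libraries held 16 with a chosen ID next to them and 23 with one within 5 IDs. These counts exceeded the 6 and 10 of the members, so the extent of grouping depended on the libraries used. The share of other IDs near that set was not computed.

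**Figure D4:**
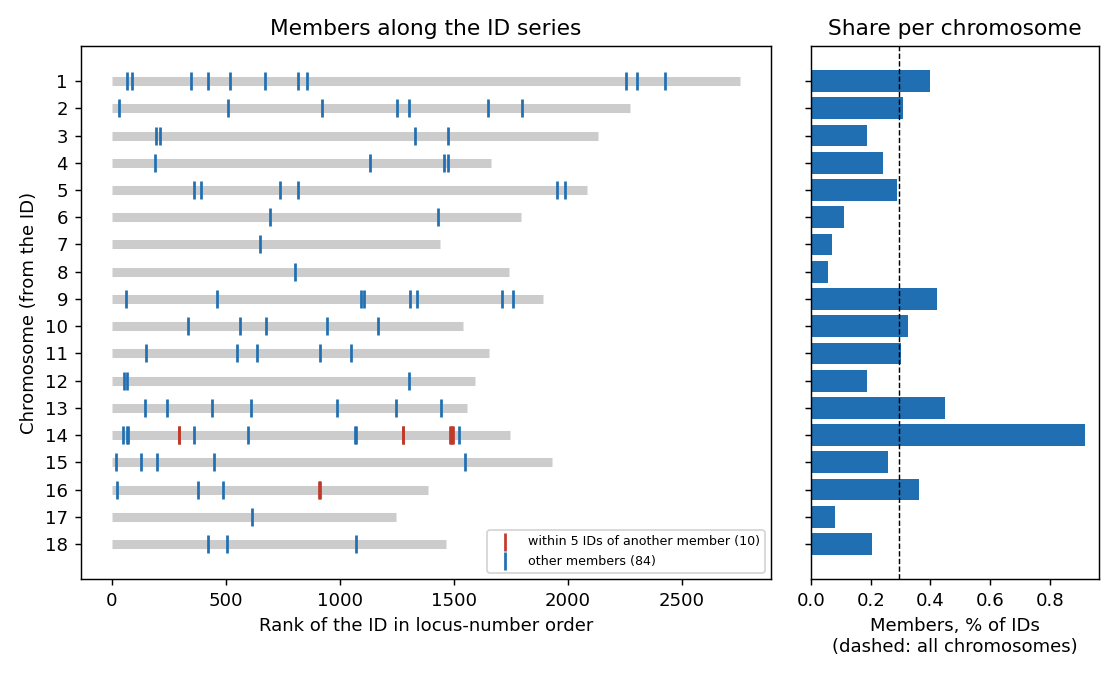
Left, the place of each of the 94 members in locus-number order (horizontal, rank of the ID) on each chromosome (vertical), with the 10 members within 5 IDs of another in red. Right, members as a percent of the IDs of each chromosome; chromosome 14 reaches 0.916% against 0.295% for all chromosomes (dashed).

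In the first adjacent pair, loci 029500 and 029600 of chromosome 14, the levels differed in kind. Locus 029500 had 5.86, 2.51, 3.77 and 4.37 CPM in cold replicates 1 to 4, against 0.655, 0.556, 0.870 and 0.797 CPM in WT replicates 1 to 4. Its neighbor at 029600, given above, was nearly absent from WT. The rise was a condition of the rule for both IDs, and their WT levels differed.

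In the second pair, locus 127800 had 2.34, 0.806, 1.08 and 0.663 CPM in cold replicates 1 to 4, against 0.279, 0.327, 0.135 and 0.262 CPM in WT replicates 1 to 4. Locus 127900 had 4.95, 0.583, 1.39 and 1.14 CPM in cold replicates 1 to 4, against 0.0971, 0.284, 0.238 and 0.487 CPM in WT replicates 1 to 4. Both were highest in cold replicate 1. That every cold library lay above every WT library was set by the rule.

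The third pair, loci 148600 and 148700, lay in a stretch of chromosome 14 that earlier results of these data had already pointed to. Locus 148600 had 7.42, 4.28, 2.42 and 3.87 CPM in cold replicates 1 to 4, against 0.243, 0.589, 0.798 and 0.868 CPM in WT replicates 1 to 4. Locus 148700 had 3.90, 1.09, 1.08 and 1.52 CPM in cold replicates 1 to 4, against 0.0971, 0.360, 0.197 and 0.238 CPM in WT replicates 1 to 4. Replicate 1 stood highest for both, and the other 3 cold libraries were closer together.

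The stretch from locus 148600 to 149700 held 12 listed IDs, of which 4 were members. Of the other 8 IDs, 3 were higher in the cold by edgeR's quasi-likelihood test, 2 did not pass and 3 were too scarce to be tested. Over all tested IDs 4.06% were higher. As the stretch was already known from these data, its count is a description and no independent observation. Loci 149200 and 149400, on either side of the member at 149300, had log2 fold changes of 3.24 (SE 0.56, adjusted p 0.00847) and 3.16 (SE 0.57, adjusted p 0.0104). Their cold means of 0.836 ± 0.44 and 0.943 ± 0.55 CPM (SD, n = 4 each) were just under the limit for members. Their WT means were 0.091 ± 0.041 and 0.108 ± 0.049 CPM (SD, n = 4 each), so these fold changes rest on few WT counts. Locus 149200 had 0.0364 CPM in WT replicate 1, a count of 3. Locus 148900, expressed at 43 ± 6.8 CPM in the cold and 23 ± 3.2 CPM in WT (SD, n = 4 each), had a log2 fold change of 0.93 (SE 0.13, edgeR adjusted p 0.00331). Locus 148800, next to the pair, did not pass, with a log2 fold change of 0.01 (SE 0.22, edgeR adjusted p 0.98).

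On chromosome 16, the member at locus 090800 had 7.63, 5.45, 6.0 and 7.61 CPM in cold replicates 1 to 4, against 0.461, 0.305, 0.725 and 0.571 CPM in WT replicates 1 to 4. The ID listed before it, 090700, had the largest rise among the neighbors of members, with 92 ± 25.2 CPM in the cold and 2 ± 0.37 CPM in WT (SD, n = 4 each). Its log2 fold change was 5.57 (SE 0.26) with an edgeR adjusted p of 5.4e-05. The rise was larger at 090700 than at 090800, whose means were 6.67 ± 1.1 CPM in the cold and 0.516 ± 0.18 CPM in WT (SD, n = 4 each). The member at 091100 was less even, with 4.02, 0.298, 1.66 and 0.641 CPM in cold replicates 1 to 4, against 0.0121, 0.0545, 0.0725 and 0.0594 CPM in WT replicates 1 to 4. The IDs between them, 090900 and 091000, did not pass the test, with log2 fold changes of 0.16 (SE 0.34) and -0.02 (SE 0.18) and edgeR adjusted p of 0.814 and 0.97.

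**Figure D5:**
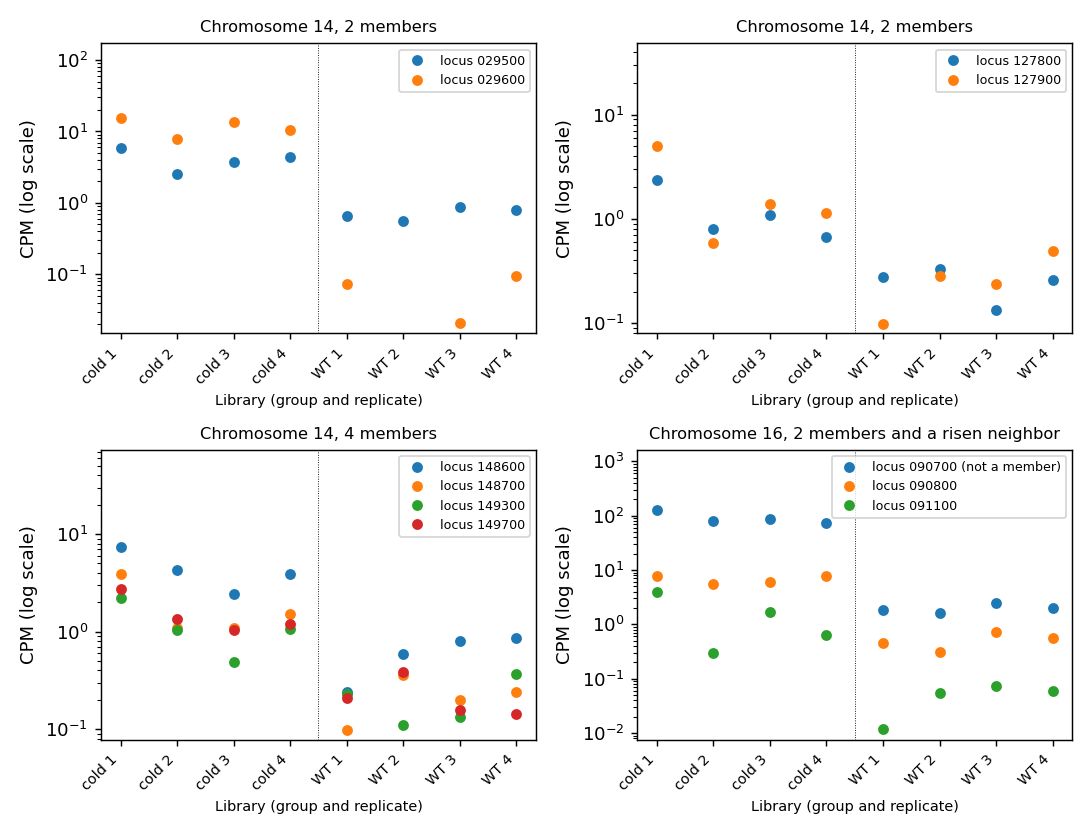
CPM (log scale) in the 4 cold libraries (left of the dotted line) and the 4 WT libraries (right) for members close to each other on chromosomes 14 and 16, and for the risen non-member at locus 090700; each point is 1 library, and a level of 0 is not drawn. Every member shown has its highest value in cold replicate 1, and the non-member at 090700 runs above the member at 090800 in every library.

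The IDs next to members were also read as a set, since the rule did not choose them. The members had 182 direct neighbors that were not members, of which 27.5% were near-silent in WT, as were 27.9% of all IDs. Of these neighbors, 152 passed the filter on low counts and were tested. By edgeR's quasi-likelihood test, adjusted over 26517 IDs by the Benjamini-Hochberg method, 9 neighbors (5.92%) were higher in the cold and 5 (3.29%) lower. Over all tested IDs, 4.06% were higher and 5.09% lower. Over the tested non-members alone, 3.73% were higher and 5.11% lower. The neighbors' share was above that background for higher calls and below it for lower calls, on few calls. The log2 fold changes of the 9 risen neighbors ran from 0.52 to 5.57, and those of the 5 fallen neighbors from -2.10 to -0.62. A risen neighbor was found for 8 of the 94 members, a fallen one for 5, and neither for 81. DESeq2 called 20 of 159 neighbors higher (12.6%) and 6 lower (3.77%), with a background of 8.05% higher and 8.42% lower. These shares were not tested against each other. In edgeR fits with 1 library left out, 7 to 10 neighbors were higher, and 2 or 3 were lower without cold replicates 2, 3 or 4 or WT replicates 2 or 3. The same fits gave 477 to 971 higher and 589 to 1385 lower calls over all tested IDs. At 2 to 5 IDs from a member, 24 of 571 tested IDs were higher in the edgeR fit (4.2%) and 17 lower (2.98%).

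Of the members themselves, 92 passed the filter on low counts of the edgeR fit, and 47 had at least 1 CPM in 4 libraries or more. As all 94 were chosen on the same contrast that the fit tests, no p-value is given for them.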

How the data were processed

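Strand-specific libraries from total RNA were sequenced, per the labels' protocols, and the authors deposited raw whole-number counts for each gene ID in 8 libraries of cassava shoots. Tools listed in the submitters' processing notes, with no role attached, are STAR 2.7.10a, SAMtools 1.6 and bedtools 2.30. How reads were counted, with which strand setting, annotation and build, was not given in the sources used here, so counts of overlapping, antisense or near-identical genes are uncertain. Columns were matched to libraries by name. No library repeated another (lowest chi-square per degree of freedom within a group 65.3).

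Of the IDs, 0 matched the 34312 rows of the RefSeq gene table (assembly M.esculenta_v8). Gene lists that need descriptions could therefore not be applied, and no sequence is shown. Without names, a rule allowed 2 member IDs: the highest by cold mean CPM, and the most even of the 24 with the highest cold means. The members, lists and alternatives were chosen with earlier results of these data known.

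CPM was the count over the column sum, scaled to 1000000. Neighbors and background were tested on the deposited counts with edgeR 4.0.16 in R 4.3.3 (filterByExpr, TMM factors, robust quasi-likelihood F test, 2-sided, no replicate block), with Benjamini-Hochberg adjusted p-values and a threshold of 0.05. The SE is the size of the log2 fold change over the square root of F. The rule and the fit were run on simulated counts with planted rises, as a check of the code. The planted cold levels were higher, and the simulated libraries more even, than for most members. The check therefore does not measure how often the rule or the fit errs here. Alternatives were other scalings and limits, DESeq2 1.42.0, limma-voom (limma 3.58.1), other filters, the replicate number as a block, and libraries left out. Python 3.11.15, pandas 2.3.3 and matplotlib 3.10.9 were used for the rest. Floors of counts cover counting error only, since reads are not independent molecules.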

Additional observations from a re-analysis of the deposited data

Results flagged for a closer look

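Within each group of 4 libraries, a single library standing apart from the rest was looked for in the library totals, the shares in abundant IDs, the summed and median levels of the members, and 15 members described singly. It was seen in 5 of the 38 sets of 4 values, and about 1 in 20 would be seen by chance. The member at locus 148700 of chromosome 14 had 3.90 CPM in cold replicate 1, against 1.08 to 1.52 CPM in the other cold libraries. The least even member, on chromosome 13, had 4.04 CPM in cold replicate 1, against 0.0248 to 0.127 CPM in the other cold libraries, and 0.0121 CPM (1 count) in WT replicate 1, against 0 in the other WT libraries. A member on chromosome 1 had 4.43 CPM in cold replicate 1, against 0.385 to 0.483 CPM in the other cold libraries, and 0.352 CPM in WT replicate 3, against 0.202 to 0.218 CPM in the other WT libraries. The members on chromosomes 13 and 1 had been picked for their unevenness. Over all 94 members, 1 cold library stood apart in this way for 11 (11.7%), and over the 9172 non-members with cold means in the same range for 7.61%.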

How the results depend on the processing

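The rule gave 96 IDs with TMM or RLE scaling in place of 94. It gave 142 with a cold mean of at least 0.5 CPM or a fold of at least 2, 47 with 2 CPM or a fold of 8, 168 with overlap allowed, and 78 to 125 with 1 library left out. The median CV over the cold libraries was 0.470 to 0.577 with 1 library left out, the lowest without cold replicate 2. Members with another next to them numbered 10 within 5 IDs, and 16 in the set chosen without the 3 libraries with more counts in abundant IDs.

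Over all tested IDs, DESeq2 called 2282 higher and 2385 lower, and the edgeR fit without the 3 libraries 619 and 769. With 1 library left out, edgeR called 477 to 971 higher and 589 to 1385 lower. Without cold replicates 3 or 4, or WT replicates 2, 3 or 4, in turn, the higher calls were 703, 591, 477, 578 and 656. Without cold replicates 3 or 4, or WT replicates 2 or 3, the lower calls were 844, 673, 589 and 782. Among neighbors, DESeq2 called 20 higher, and with 1 library left out 7 to 10 were higher and 2 to 6 lower in edgeR. Between cold and WT libraries of the same replicate number, deviations from the group mean had correlations of 0.22, 0.07, -0.27 and -0.08. Libraries of different numbers were not compared in this way, so whether the numbers pair the libraries was not settled. With a replicate block, edgeR called 592 (2.23%) higher and 689 (2.60%) lower over all tested IDs, and 7 (4.61%) and 2 (1.32%) among neighbors.

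Without the 3 libraries the rule gave 92 IDs, of which 47 were among the 94, so a like count does not mean the same IDs. The causes of these differences were not tested. Depth limits the 9 members with at most 12 WT counts.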

Other observations

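The 74 near-silent IDs that met every condition except the lack of overlap had another library pattern than the members. Cold replicate 2 was the highest cold library for 51 of them, replicate 1 for 15, replicate 4 for 5 and replicate 3 for 3, and cold replicate 1 was the lowest for 52. In 64 of the 74, 1 cold library was at least 2 times every other. On chromosome 8 lay 17 of the 74 (23.0%), against 1 of the 94 members and 5.47% of all IDs. This pattern was noticed after the values had been seen and was not tested.

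A stretch of chromosome 8 from locus 129900 to 131800 held 20 listed IDs, all near-silent in WT, of which 12 were among the 74 and 0 were members. All 12 were highest in cold replicate 2, at 9.08 to 49.4 CPM with a median of 18.4 CPM. Their medians were 0.02 CPM in cold replicate 1, 1.07 CPM in cold replicate 3 and 0.236 CPM in cold replicate 4, and 0.0546, 0.0327, 0.0414 and 0.244 CPM in WT replicates 1 to 4. Of the 20 IDs, 7 were tested by edgeR and 0 were called higher, against 4.06% over all tested IDs. DESeq2 called 3, with a background of 8.05% higher and 8.42% lower. The stretch was picked by values of the same contrast, so these counts are a description and do not test a rise.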
